A study of Homo sapiens with 12 samples.

Results

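Pyroptosis and necroptosis are lytic forms of programmed cell death, and 9 genes that carry them out were described across 12 RNA-seq libraries of human breast cancer cells. The genes were 3 inflammatory caspases (CASP1, CASP4, CASP5), 3 gasdermins (GSDMB, GSDMD, GSDME) and the kinases RIPK1 and RIPK3 with the pseudokinase MLKL. They were picked by symbol from the 61552 genes listed in each count table, and all 9 were found. Of these, 7 passed the filter on low counts and were tested, while CASP5 and RIPK3 had no counts in any library.

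The cells were of 2 wild-type triple-negative breast cancer lines, HCC38 in RPMI-1640 medium and MDA-MB-231 in DMEM with low glucose, and effects of line and of medium cannot be told apart. Libraries came from untreated cells or from cells held for 48 h with 400 IU/mL of interferon-β (a type I interferon), 3 in each of the 4 groups. By its title, the series concerns IRF3, a transcription factor of innate immunity, in replication stress signalling and in how cells respond to genotoxic agents. The titles call the libraries biological replicates without saying what was separate between them, such as cultures or passages, so p-values measure the spread between these libraries. Each line is 1 cell line and stands for no wider class of tumours.

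In pyroptosis, inflammatory caspases cut a gasdermin, whose freed amino-terminal part forms pores in the plasma membrane. CASP1 is activated by inflammasomes, which join a sensor to the caspase, often through the adaptor PYCARD (ASC). It also matures interleukin-1β and interleukin-18, whereas CASP4 and CASP5 bind bacterial lipopolysaccharide directly. In necroptosis, RIPK1 recruits RIPK3, which phosphorylates MLKL so that MLKL breaks the membrane, and CASP8 holds this route back. Type I interferon signalling is known to induce several genes of both routes.

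Promoter sequences in RefSeq (GRCh38.p14, 250 bases before to 50 after an annotated start), matched by symbol, were used for 5 of the 9 genes, with 7 starts. CASP1, GSDMB and RIPK3 had no entry. GSDMD was left out of the search, so whether its promoter holds a match was not tested. The 7 sequences used were searched on both strands for the interferon response core GAAANNGAAA, found in 3.57% of 35116 promoters of this length. The 4 shown here are the inflammatory caspases CASP4 and CASP5, neighbours on chromosome 11 with opposite detection in these cells, and the necroptosis genes MLKL and RIPK1. Capitals mark the matches, and in CASP5 a pair of overlapping interferon cores runs together.
CASP4: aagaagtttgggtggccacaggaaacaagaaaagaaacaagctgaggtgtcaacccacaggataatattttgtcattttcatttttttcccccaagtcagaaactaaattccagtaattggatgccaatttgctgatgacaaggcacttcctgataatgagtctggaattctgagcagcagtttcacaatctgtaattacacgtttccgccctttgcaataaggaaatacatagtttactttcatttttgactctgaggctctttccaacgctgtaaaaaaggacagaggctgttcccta
CASP5: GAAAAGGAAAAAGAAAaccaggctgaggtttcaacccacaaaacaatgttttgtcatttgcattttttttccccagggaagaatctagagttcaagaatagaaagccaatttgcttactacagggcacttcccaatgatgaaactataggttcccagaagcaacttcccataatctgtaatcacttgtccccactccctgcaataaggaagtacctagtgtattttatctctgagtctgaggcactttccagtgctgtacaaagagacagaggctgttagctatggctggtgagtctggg
MLKL: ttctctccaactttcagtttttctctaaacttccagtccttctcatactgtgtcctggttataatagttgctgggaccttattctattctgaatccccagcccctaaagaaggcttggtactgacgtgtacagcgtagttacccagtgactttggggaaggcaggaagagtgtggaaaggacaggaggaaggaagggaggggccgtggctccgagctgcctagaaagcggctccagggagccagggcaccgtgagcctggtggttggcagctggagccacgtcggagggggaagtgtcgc
RIPK1: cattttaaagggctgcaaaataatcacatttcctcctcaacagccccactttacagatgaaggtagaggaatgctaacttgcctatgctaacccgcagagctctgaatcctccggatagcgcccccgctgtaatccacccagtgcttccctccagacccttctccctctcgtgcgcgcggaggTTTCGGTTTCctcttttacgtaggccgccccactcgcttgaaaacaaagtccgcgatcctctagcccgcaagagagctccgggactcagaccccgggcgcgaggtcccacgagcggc
The windows are chr11:104968525-104968824 for CASP4, chr11:105023119-105023418 for CASP5 and chr16:74700813-74701112 for MLKL, all on the minus strand, and chr6:3068128-3068427 for RIPK1 on the plus strand. CASP5 held 2 interferon cores, GAAAAGGAAA and GAAAAAGAAA. The RIPK1 window held 1 interferon core, read on the plus strand as TTTCGGTTTC, which lies within the window of another annotated start too. The third RIPK1 window, chr6:3063717-3064016, the most upstream of its 3 windows, held no match, and neither did the CASP4, MLKL or GSDME windows. CASP4 and CASP5 were identical at 222 of 325 aligned columns (68.3%), against 41.7% to 47.3% for CASP4 with the other windows. A match is a description of letters and shows no binding.

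Total counts ran from 26660038 to 43588773 per library, and 3 counts corresponded to 0.0688 to 0.113 CPM, the count scaled to a common library size. In MDA-MB-231 the numbers in the deposited library names form 2 sets, set A (untreated replicates 1 and 2, treated replicate 1) and set B (untreated replicate 3, treated replicates 2 and 3). Between replicates, chi-square per degree of freedom was 42.4 to 62.3 across the sets and 4.10 to 14.1 otherwise. Responses of the members in this line are therefore also given within each set, which was not done for other pathway genes. Set A has 1 treated library and set B 1 untreated library, so these within-set values come from a fit of all 12 libraries that assumes the lone library to vary like the other groups, and their p-values are no replicated test of a set. Of the receptors whose absence defines triple-negative tumours, ESR1 and PGR stayed under 1 CPM in all groups, while ERBB2 transcripts were present (63.3 ± 0.902 to 166 ± 15.5 CPM as group means, SD, n = 3). The summed level of 8 leukocyte markers was 14.2 to 17.2 CPM over the HCC38 libraries and 1.58 to 3.55 CPM over the MDA-MB-231 libraries, with MS4A1 at 0 throughout. In HCC38 most of it was NCAM1 (6.36 ± 1.06 and 9.59 ± 0.491 CPM untreated and treated) and CD14 (5.00 ± 0.245 and 4.01 ± 0.765 CPM). PTPRC, the pan-leukocyte marker, was called higher in treated HCC38, at 0.168 ± 0.0797 and 0.583 ± 0.0546 CPM or 3 to 20 counts per library (log2 1.81 ± 0.45, adjusted p = 0.0376), and its part in the responses was not tested. In bulk RNA, fewer cells expressing a gene and less RNA per cell cannot be told apart.

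Untreated, the same 7 genes were detected in both lines, at different levels. Of the 7 tested, 5 were higher in MDA-MB-231 than in HCC38 and 2 were lower, where 36.4% of all 18121 tested genes were higher and 39.0% lower. GSDME and MLKL were the higher ones with the largest differences, and GSDMB and CASP1 were the lower ones. A call here means an adjusted p under 0.05, Benjamini-Hochberg over all tested genes, from edgeR's quasi-likelihood test on the counts, and log2 fold changes carry their SE. Calls were thus common among genes in general.

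CASP1 (ENSG00000137752, chr11:105025397-105035250 on GRCh38), the inflammasome caspase, measured 12.9, 14.6 and 13.2 CPM in untreated HCC38 and 23.4, 20.8 and 24.2 CPM after interferon-β. In MDA-MB-231 it measured 6.0, 5.07 and 6.11 CPM untreated and 14.3, 20.3 and 20.9 CPM treated. In both lines every treated library was above every untreated one, and treated MDA-MB-231 reached the range of HCC38. CASP1 rose 1.68-fold in HCC38 (log2 0.75 ± 0.14, adjusted p = 0.00730) and 3.23-fold in MDA-MB-231 (log2 1.69 ± 0.15, adjusted p = 2.85e-06). The rise in MDA-MB-231 was log2 1.37 ± 0.16 within set A and 1.75 ± 0.16 within set B, each with 1 library in an arm (adjusted p = 4.54e-06 and 1.78e-07 with the spread of the other groups). CASP1 started lower in untreated MDA-MB-231 than in HCC38 (2.37-fold, log2 -1.24 ± 0.15, adjusted p = 2.38e-06). After treatment that gap was log2 -0.30 ± 0.14 and did not pass (adjusted p = 0.0632). A term for the library sets gave log2 -0.56, but that fit counted HCC38 with set A. Its estimate therefore compares MDA-MB-231 at the level of set A with HCC38, and set A has 1 treated library. That library held 14.3 CPM, beside 20.3 and 20.9 CPM in set B, so the value is no adjusted gap between the lines. On the log2(FPKM + 0.1) scale the rise in HCC38 did not pass in limma (adjusted p = 0.0707). Part of CASP1 is shared with its decoy relatives CARD16 and CARD17, since 121 of 1952 words of 50 bases (6.20%) in its longest coding transcript in GENCODE 29 occur there, so its reads could be split.

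CASP4 (ENSG00000196954, chr11:104942866-104969366), the sensor of cytosolic lipopolysaccharide, was the most abundant member per transcript length in all 4 groups. It measured 44.2, 49.3 and 46.2 CPM in untreated and 64.2, 59.4 and 58.7 CPM in treated HCC38. The treated libraries all lay above the untreated ones, yet the estimate of log2 0.38 ± 0.10 narrowly missed the threshold (adjusted p = 0.0577). In MDA-MB-231 it measured 76.5, 74.8 and 57.1 CPM untreated and 85.7, 79.0 and 76.2 CPM treated, with treated replicate 3 inside the untreated range (log2 0.21 ± 0.10, adjusted p = 0.210). The low untreated value of 57.1 CPM belonged to set B, as did the treated values of 79.0 and 76.2 CPM. With a term for the sets, CASP4 passed in both lines, at log2 0.38 ± 0.07 in HCC38 (adjusted p = 0.00141) and 0.31 ± 0.08 in MDA-MB-231 (adjusted p = 0.00612). That fit called 5.81% of genes higher and 4.75% lower in HCC38, and 11.6% and 11.0% in MDA-MB-231. Within set A the MDA-MB-231 estimate was 0.18 ± 0.10 (adjusted p = 0.331) and within set B, against its 1 untreated library, 0.44 ± 0.10 (adjusted p = 0.00343). Untreated MDA-MB-231 held 1.49-fold more CASP4 than untreated HCC38 (log2 0.58 ± 0.10, adjusted p = 0.000138).

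CASP5 (ENSG00000137757, chr11:104994235-105023168), the second lipopolysaccharide-binding caspase, had 0 counts and an FPKM listed at 0 in all 12 libraries, treated ones included. A count of 0 allows up to 0.0688 to 0.113 CPM, depending on the library. Among the inflammatory caspases CASP1 thus made up 19.6 ± 0.751% (SD, n = 3) of the summed FPKM in untreated HCC38 and 22.3 ± 1.23% in treated HCC38. In MDA-MB-231 its share was 6.16 ± 1.83% untreated and 15.3 ± 4.11% treated, and CASP4 made up the rest in both lines.

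**Figure D1:**
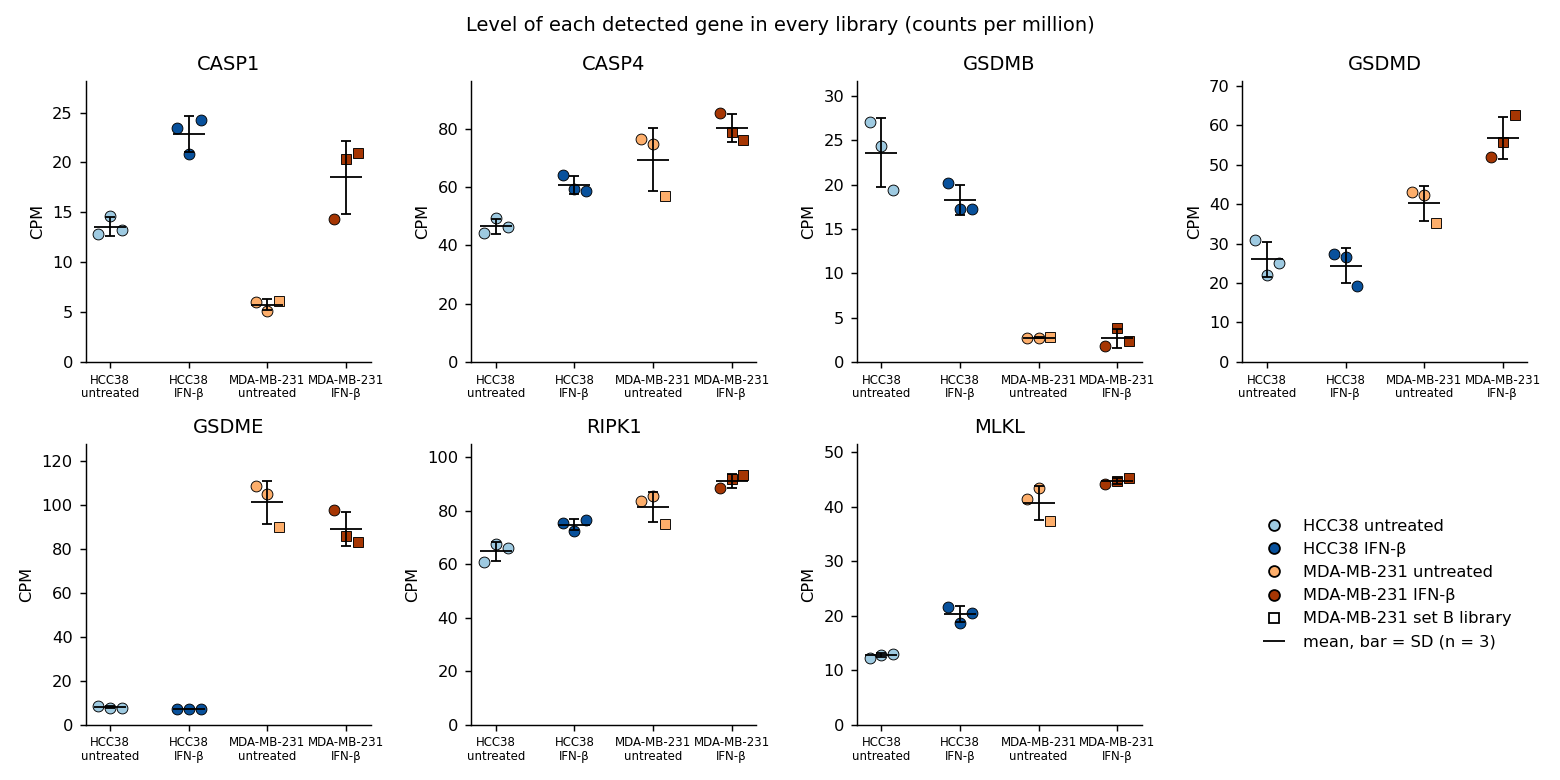
Level of the 7 detected genes in each library, in CPM on linear axes from 0. Points are libraries, squares are MDA-MB-231 libraries of set B, and bars are means with SD (n = 3). CASP1 is higher in treated than in untreated libraries of both lines, MLKL shows its clear step in HCC38, and GSDME and GSDMB separate the lines whatever the treatment.

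The gasdermins split between the lines. GSDME (ENSG00000105928, chr7:24698355-24757940), a pore former that is frequently silenced in tumours, measured 8.37, 7.76 and 7.43 CPM in untreated HCC38 and 108, 105 and 89.9 CPM in untreated MDA-MB-231. The groups lay far apart, 12.9-fold (log2 3.69 ± 0.10, adjusted p = 3.09e-13), and the gap was 12.7-fold after treatment (adjusted p = 4.20e-13). Treated libraries held 7.16, 6.87 and 7.01 CPM in HCC38 and 97.8, 86.0 and 83.0 CPM in MDA-MB-231. The treated HCC38 libraries lay just below the untreated ones and the MDA-MB-231 groups overlapped. Neither response passed (log2 -0.16 ± 0.11, adjusted p = 0.493, and -0.19 ± 0.09, adjusted p = 0.201), and within the MDA-MB-231 sets it was -0.13 ± 0.10 and -0.09 ± 0.09.

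GSDMB (ENSG00000073605, chr17:39904595-39919854), a gasdermin of epithelia that granzyme A can cut, went the other way between the lines. It measured 27.1, 24.3 and 19.4 CPM in untreated HCC38 and 2.71, 2.74 and 2.76 CPM in untreated MDA-MB-231, 8.61-fold lower (log2 -3.11 ± 0.22, adjusted p = 5.53e-09). Treated libraries held 20.2, 17.2 and 17.3 CPM in HCC38 and 1.80, 3.87 and 2.32 CPM in MDA-MB-231. Treated and untreated libraries overlapped in both lines, and neither response passed (log2 -0.37 ± 0.19, adjusted p = 0.360, and -0.06 ± 0.23, adjusted p = 0.939). Within sets A and B the MDA-MB-231 estimate was -0.60 ± 0.31 and 0.13 ± 0.27, neither of which passed, on 62 to 115 counts per library.

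GSDMD (ENSG00000104518, chr8:143553207-143563062), the pore former that CASP1 and CASP4 cut, measured 30.8, 22.1 and 25.1 CPM in untreated and 27.3, 26.7 and 19.3 CPM in treated HCC38. These groups overlapped almost entirely (log2 -0.09 ± 0.15, adjusted p = 0.835). In MDA-MB-231 it measured 43.1, 42.4 and 35.2 CPM untreated and 52.0, 55.7 and 62.6 CPM treated, with every treated library above every untreated one. GSDMD rose 1.41-fold there (log2 0.50 ± 0.14, adjusted p = 0.0347). This call rests on little margin. It was lost on leaving out any untreated replicate (adjusted p = 0.0567, 0.0656 and 0.0848 without replicates 1, 2 and 3) or treated replicate 2 (0.0790) or 3 (0.148), and in limma on log2(FPKM + 1) (0.127). The estimate was 0.28 ± 0.17 within set A, for 1 treated library (adjusted p = 0.396), and 0.75 ± 0.18 within set B, against 1 untreated library (adjusted p = 0.00439). The lines differed by 1.55-fold untreated (adjusted p = 0.00121) and 2.32-fold treated (adjusted p = 2.78e-06), MDA-MB-231 being higher.

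Per transcript length, GSDMD made up 51.4 ± 5.00% of the summed FPKM of these gasdermins in untreated HCC38, GSDMB 35.9 ± 4.04% and GSDME 12.7 ± 1.41%. In untreated MDA-MB-231 the shares were 35.1 ± 0.320% for GSDMD, 1.57 ± 0.517% for GSDMB and 63.4 ± 0.495% for GSDME. GSDMD was thus the leading gasdermin transcript in HCC38 and GSDME in MDA-MB-231. After interferon-β the GSDMD and GSDME shares in MDA-MB-231 were 45.0 ± 4.54% and 53.0 ± 4.64%. In the treated replicate 3 alone GSDMD (49.8%) was ahead of GSDME (48.7%).

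**Figure D2:**
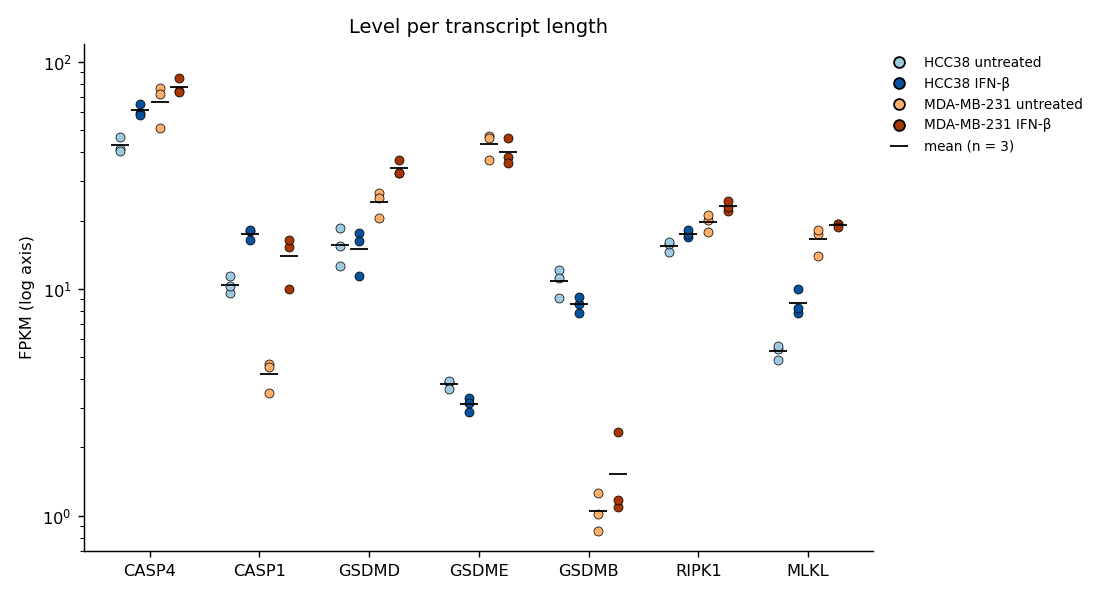
FPKM of the 7 detected genes in each library on a log axis, which lets genes be compared per transcript length. Points are libraries and dashes are means of 3 libraries. CASP4 is highest in every group, and GSDME lies at 3.11 to 3.81 in HCC38 and at 40.2 to 43.5 in MDA-MB-231 as group means.

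RIPK1 (ENSG00000137275, chr6:3063824-3115187), the kinase at the branch between survival, apoptosis and necroptosis, varied least of the 7 across the group means. It measured 60.7, 67.7 and 65.9 CPM in untreated and 75.5, 72.4 and 76.5 CPM in treated HCC38. In MDA-MB-231 it measured 83.6, 85.3 and 75.1 CPM untreated and 88.4, 91.8 and 93.5 CPM treated. Treated libraries were above untreated ones in both lines, but by small steps that did not pass (log2 0.21 ± 0.07, adjusted p = 0.164, and 0.17 ± 0.07, adjusted p = 0.165). The MDA-MB-231 estimate was 0.07 ± 0.09 within set A and 0.30 ± 0.09 within set B, again with 1 library in an arm. With library totals in place of TMM, the RIPK1 estimate over all 6 libraries passed (0.25, adjusted p = 0.0413). That scaling came with a median shift of all genes of log2 0.08 in this response, so the larger estimate is not particular to RIPK1. The untreated lines differed by 1.26-fold (adjusted p = 0.000932). An annotated antisense gene covers 5.63% of the exonic bases of RIPK1 in GENCODE 29, and the sources do not say whether counting used strand.

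MLKL (ENSG00000168404, chr16:74671855-74700960), the executor of necroptosis, measured 12.3, 12.8 and 12.96 CPM in untreated HCC38 and 21.6, 18.6 and 20.4 CPM after interferon-β. All treated libraries were well above the untreated ones, and MLKL rose 1.59-fold (log2 0.67 ± 0.09, adjusted p = 0.000512). MDA-MB-231 held 41.4, 43.3 and 37.3 CPM untreated and 44.1, 44.7 and 45.2 CPM treated. There the treated libraries also lay above the untreated ones, by a step that did not pass (log2 0.14 ± 0.09, adjusted p = 0.344), with 0.06 ± 0.11 in set A and 0.27 ± 0.11 in set B. Untreated MDA-MB-231 thus held more MLKL than HCC38 did after treatment, and between the lines the gap was 3.20-fold untreated (adjusted p = 3.20e-10) and 2.21-fold treated (adjusted p = 1.91e-08).

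RIPK3 (ENSG00000129465, chr14:24336025-24340022), the kinase that activates MLKL, had 0 counts and an FPKM listed at 0 in all 12 libraries. The limit set by 0 counts is the same as for CASP5. A neighbouring annotated gene on the same strand shares 11% of the exonic bases of RIPK3 in GENCODE 29, and it also had 0 counts and FPKM listed at 0 in all 12 libraries. Of the 3 necroptosis genes, both lines therefore carried RIPK1 and MLKL transcripts without detected RIPK3.

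Of the 7 tested members, 2 were called higher in HCC38 (CASP1 and MLKL) and 2 in MDA-MB-231 (CASP1 and GSDMD), and none lower. Over all tested genes, 2.39% were called higher and 1.25% lower in HCC38, and 6.46% and 6.08% in MDA-MB-231. At an unadjusted p under 0.05, 4 members were higher in HCC38 and 3 in MDA-MB-231, again with none lower. Of all 18121 tested genes, 1515 were higher and 1426 lower at that threshold in HCC38, and 2440 and 2330 in MDA-MB-231. The median log2 fold change of the 7 was 0.21 in HCC38 and 0.17 in MDA-MB-231, beside medians over all tested genes of 0.00 in both. Between the treated lines 5 were higher and 1 lower in MDA-MB-231, where 36.7% of all genes were higher and 38.2% lower.

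**Figure D3:**
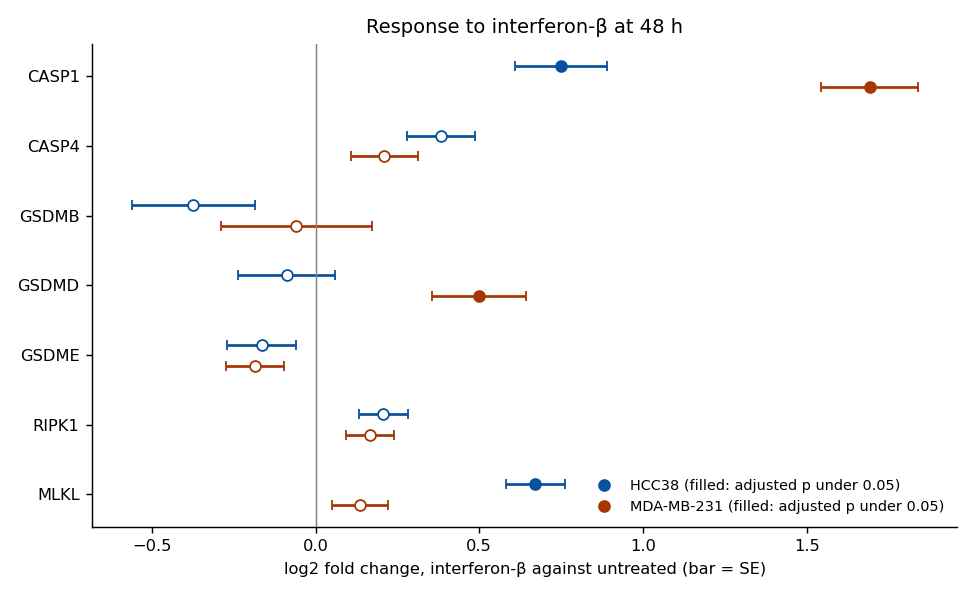
Log2 fold change of each tested gene after interferon-β against untreated, with SE, in HCC38 and MDA-MB-231. Filled points passed the test at an adjusted p under 0.05. CASP1 passed in both lines, MLKL in HCC38 and GSDMD in MDA-MB-231.

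The difference between the responses was tested directly. CASP1 rose more in MDA-MB-231 than in HCC38, by log2 0.94 ± 0.20 (adjusted p = 0.0207), and the MLKL estimate was smaller there, by log2 -0.53 ± 0.12 (adjusted p = 0.0295). These were 1 higher and 1 lower of 7 members, where 1.99% of all genes were higher and 1.52% lower. The GSDMD difference of log2 0.59 ± 0.21 did not pass (adjusted p = 0.142), so its response is not shown to differ between the lines. CASP4, GSDMB, GSDME and RIPK1 differed by log2 -0.17 ± 0.15, 0.31 ± 0.30, -0.02 ± 0.14 and -0.04 ± 0.10, and none passed.

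Both differences had little margin. For CASP1 the call was lost without untreated HCC38 replicate 2 (adjusted p = 0.0592), treated HCC38 replicate 1 (0.0594), untreated MDA-MB-231 replicate 2 (0.0547) or treated MDA-MB-231 replicate 2 (0.0555) or 3 (0.0686). For MLKL it was lost on leaving out any of 9 libraries (0.0635 to 0.0840) and held without treated HCC38 replicate 2 (0.0260), untreated MDA-MB-231 replicate 3 (0.0113) or treated MDA-MB-231 replicate 1 (0.0263). With a term for the library sets both passed (CASP1 log2 0.82 ± 0.16, adjusted p = 0.00225, and MLKL -0.51 ± 0.12, adjusted p = 0.00961), and so did GSDMD (0.60 ± 0.19, adjusted p = 0.0414). That fit called 5.77% of all genes higher and 6.47% lower.

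**Figure D4:**
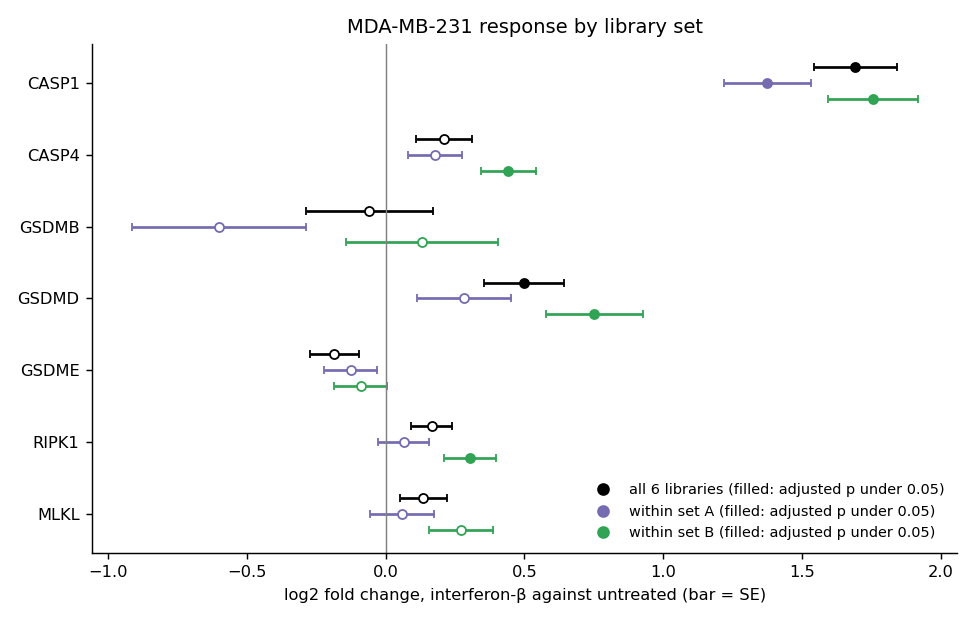
Log2 fold change of the 7 tested genes in MDA-MB-231 over all 6 libraries and within library sets A and B, with SE. Filled points have an adjusted p under 0.05. Each set has 1 library in an arm (treated in A, untreated in B), with the spread taken from all groups, and the CASP1 estimate is above 0 in both, at 1.37 and 1.75.

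The other genes of these pathways numbered 82, of which 72 were tested. In HCC38, 8 were called higher and 0 lower, where 2.39% of all tested genes were higher and 1.25% lower. In MDA-MB-231 11 were higher and 2 lower, where 6.46% of all tested genes were higher and 6.08% lower. Counts in the smaller groups below stand beside these same shares, and no group was tested as a set. Their median log2 fold change was 0.09 in HCC38 and 0.10 in MDA-MB-231. The higher ones included the transcription factor STAT2, the DNA sensor IFI16, the double-stranded RNA sensor TLR3 and the RNA-activated kinase EIF2AK2 in both lines. STAT2, a mediator of type I interferon signalling, rose from 99.4 ± 2.06 to 160.0 ± 2.73 CPM in HCC38 and from 63.6 ± 1.49 to 179 ± 32.7 CPM in MDA-MB-231 (1.61-fold and 2.82-fold, adjusted p = 0.00140 and 2.55e-07). Genes named only to complete a small count in the groups that follow were chosen after their values were seen.

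Of the inflammasome sensors and regulators, 1 of 11 tested rose in HCC38 and 2 of 11 in MDA-MB-231. IFI16 rose from 154 ± 11.0 to 335 ± 37.5 CPM in HCC38 and from 100.0 ± 8.09 to 336 ± 9.75 CPM in MDA-MB-231 (log2 1.12 ± 0.09, adjusted p = 3.37e-06, and 1.75 ± 0.10, adjusted p = 1.12e-08). PYCARD, an adaptor between sensor and CASP1, measured 12.3, 9.62 and 11.6 CPM in untreated and 8.77, 11.2 and 6.49 CPM in treated HCC38. It had 0 counts in all 6 MDA-MB-231 libraries. CASP1 therefore rose in MDA-MB-231 libraries in which this adaptor was not detected, and whether CASP1 can be activated there was not tested. NLRP1, an inflammasome sensor, stood at 50.1 ± 1.69 CPM in untreated MDA-MB-231 and 1.09 ± 0.341 CPM in untreated HCC38 (adjusted p = 9.37e-12). It is named here after its values were seen. NLRP3 stayed at 0.690 to 1.38 CPM as group means and AIM2 at 0 to 0.450 CPM, and neither passed in either line.

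CARD16, which encodes a CARD-only decoy of CASP1, had only 3 to 52 counts per library. It was called higher in MDA-MB-231 (log2 1.92 ± 0.37, adjusted p = 0.00384) and reached log2 1.14 ± 0.36 in HCC38 (adjusted p = 0.114). Its FPKM were 2.03 ± 0.828 untreated and 10.0 ± 1.64 treated in MDA-MB-231 beside counts of 3 to 22 and 41 to 52 per library. CASP1 and CARD16 share sequence, so the level of CARD16 is uncertain.

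Of the cytokines and receptors of inflammasome signalling, 0 of 6 were called in HCC38 and 2 of 6 rose in MDA-MB-231. IL1B, the pro-cytokine that CASP1 matures, rose from 5.22 ± 0.880 to 14.0 ± 2.36 CPM in MDA-MB-231 (log2 1.43 ± 0.30, adjusted p = 0.00546), while HCC38 libraries held 0 to 0.215 CPM. The IL1B responses of the lines were not shown to differ (adjusted p = 0.439 for the difference). The other was the receptor IL1R1 (log2 0.92 ± 0.16, adjusted p = 0.00163), whose response was larger in MDA-MB-231 than in HCC38 by log2 0.85 ± 0.22 (adjusted p = 0.0493). That difference barely passed. Treated MDA-MB-231 held 27.1 CPM in the 1 library of set A and 16.7 and 17.2 CPM in set B, beside 9.89 to 12.2 CPM untreated. IL18 stood at 10.4 ± 0.540 and 11.2 ± 0.927 CPM in HCC38 and 27.4 ± 4.53 and 34.4 ± 7.64 CPM in MDA-MB-231, and did not pass in either line.

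CASP8, the caspase that holds necroptosis back, went from 38.4 ± 2.25 to 53.6 ± 7.48 CPM in HCC38 and rose there (log2 0.48 ± 0.09, adjusted p = 0.00918). In MDA-MB-231 its estimate was 0.22 ± 0.09 and did not pass (adjusted p = 0.151). The difference between the lines did not pass either (log2 -0.26 ± 0.13, adjusted p = 0.303).

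Of the other gasdermins and membrane rupture genes, 1 of 4 was called, GSDMC in MDA-MB-231, at group means of 0.0498 and 0.279 CPM that are too low to describe further. NINJ1, which ruptures the membrane after gasdermin pores form, stood at 75.1 ± 5.13 and 63.5 ± 4.69 CPM in HCC38 and 21.5 ± 5.39 and 22.2 ± 5.95 CPM in MDA-MB-231, and neither response passed. Between the untreated lines NINJ1 was lower in MDA-MB-231 (log2 -1.81 ± 0.18, adjusted p = 4.17e-07).

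Of the necroptosis triggers and adaptors, 4 of 11 rose in HCC38 and 3 of 11 in MDA-MB-231. In HCC38 they were TLR3, EIF2AK2, the lipopolysaccharide receptor TLR4 and the death receptor TNFRSF10A, and in MDA-MB-231 TLR3, EIF2AK2 and FAS. TLR4 had only 19 to 49 counts per HCC38 library (0.731 ± 0.194 and 1.40 ± 0.376 CPM untreated and treated, adjusted p = 0.0396). TNFRSF10A went from 8.61 ± 0.673 to 11.9 ± 1.59 CPM there (adjusted p = 0.0394), and both calls were near the threshold. EIF2AK2 rose by log2 0.87 ± 0.10 in HCC38 and 1.62 ± 0.10 in MDA-MB-231 (adjusted p = 7.27e-05 and 4.51e-08). TLR3 rose from 8.95 ± 0.817 to 16.1 ± 1.44 CPM in HCC38 (adjusted p = 0.0221) and from 9.81 ± 3.27 to 23.7 ± 2.80 CPM in MDA-MB-231 (adjusted p = 0.000468). FAS, also a death receptor, rose in MDA-MB-231 from 1.22 ± 0.170 to 3.27 ± 1.01 CPM (log2 1.44 ± 0.21, adjusted p = 0.000491), still far under the 29.3 ± 0.599 CPM of untreated HCC38. ZBP1, the nucleic acid sensor that engages RIPK3, had 0 counts in all untreated libraries and group means of 0.121 CPM in treated HCC38 and 0.0415 CPM in treated MDA-MB-231, too few to be tested.

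Of 19 regulators of RIPK1, 1 rose in HCC38 (BIRC3) and 2 in MDA-MB-231 (RBCK1, of the linear ubiquitin ligase, and TNFAIP3, a ubiquitin-editing enzyme). By the test of the difference between the responses 0 of the 19 were called, where 1.99% of all genes were higher and 1.52% lower. Their responses are thus not shown to differ between the lines. BIRC3, a ubiquitin ligase for RIPK1, rose from 32.2 ± 1.39 to 69.6 ± 7.61 CPM in HCC38 (log2 1.11 ± 0.20, adjusted p = 0.00502) and reached log2 0.34 ± 0.20 in MDA-MB-231 (adjusted p = 0.295). There BIRC3 measured 51.5 CPM in the 1 treated library of set A and 28.6 CPM in both treated libraries of set B. Untreated libraries there held 22.5 to 33.6 CPM. CFLAR, the partner of CASP8, stayed at 45.4 ± 1.21 and 48.2 ± 2.25 CPM in HCC38 and 51.0 ± 1.96 and 51.4 ± 0.578 CPM in MDA-MB-231, and did not pass. Of 14 necrosome and membrane repair genes, 0 were called in HCC38 and 2 were lower in MDA-MB-231, the phosphatase PGAM5 and CHMP3, a subunit of the ESCRT-III repair machinery. Their log2 fold changes were -0.30 ± 0.09 and -0.49 ± 0.07 (adjusted p = 0.0332 and 0.000617). By the test of the difference 0 of these 14 were called either. In MDA-MB-231, 6.46% of all tested genes were called higher and 6.08% lower.

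**Figure D5:**
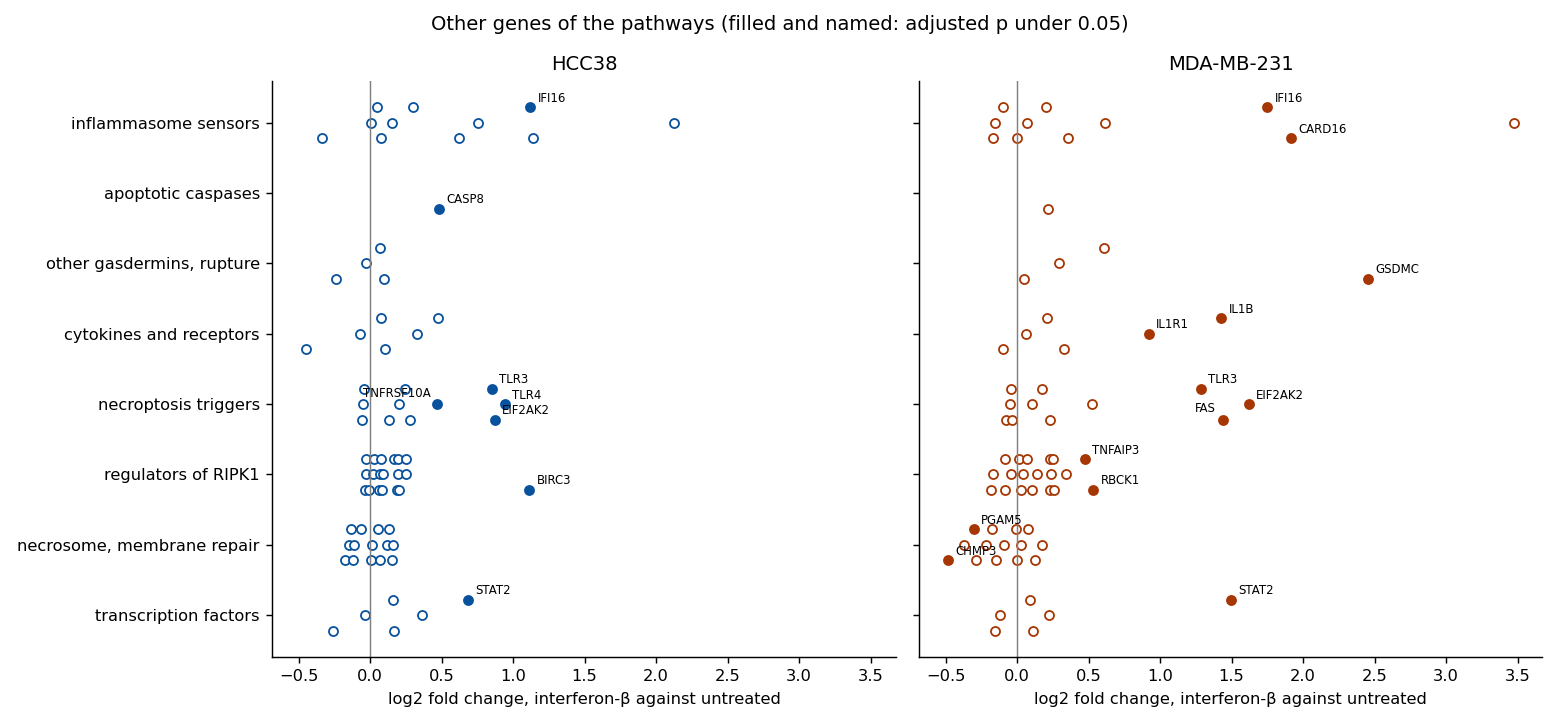
Log2 fold change after interferon-β of the 72 tested genes of the pathways, by role, in HCC38 and MDA-MB-231. Each point is 1 gene, and filled, named points passed at an adjusted p under 0.05. Of the called genes, IFI16 lies furthest to the right in HCC38, at 1.12, and the barely detected GSDMC in MDA-MB-231, at 2.45.

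The genes whose log2 CPM tracked each member most closely over the 12 libraries are given as a description, since the points share lines and treatments. For CASP1 they were the interferon-induced genes USP18 (Pearson r = 0.983), PARP9 (0.982) and OAS3 (0.980). For MLKL they were NT5E (0.994), FOXQ1 (0.994) and TGFA (0.994), and for GSDME ADGRL2, ENO2 and FOXP2 (each 0.999). GSDMB was closest to STK32B (0.994), GSDMD to TMEM259 (0.991), RIPK1 to RNF8 (0.979) and CASP4 to FAM167A (0.977). In GSDME and GSDMB the spread over libraries was mostly the gap between the lines, whereas CASP1 also moved with treatment in both.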

How the data were processed

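Per the labels' protocols, total RNA was made into strand-preserving libraries. For each of 12 libraries the authors deposited whole-number read counts per gene, not normalized, and FPKM, normalized for length and depth. Tools listed in the submitters' processing notes are Cufflinks 2.2.1, fastp 0.23.2 and HTSeq 2.0.2, with build GRCh38.p13. For the aligner, annotation release and counting settings the sources used here give nothing. The members and gene lists were chosen with earlier results of these data known. Some items of those lists are not reported here.

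Counts were tested in R 4.3.3 with edgeR 4.0.16 (quasi-likelihood F-test; limma 3.58.1 where named) after filterByExpr (minimum count 10, minimum total 15) and TMM scaling (factors 0.947 to 1.03), with 1 coefficient per group over all 12 libraries. Adjusted p-values are Benjamini-Hochberg over 18121 genes, called under 0.05, in 5 comparisons. The test was checked on simulated counts that held no library sets and no difference between the untreated lines. That check does not cover the spread between the sets in MDA-MB-231. CPM use TMM-scaled totals and are given as mean ± SD of 3 libraries. Coordinates are from the deposited FPKM tables, whose starts count from 0 and had 1 added. Pathway genes were named if called with an absolute log2 fold change of at least 1, at most 10 per line, besides 9 always named (CASP8, PYCARD, AIM2, NLRP3, ZBP1, IL1B, IL18, NINJ1 and CFLAR). Alternatives were other scalings, DESeq2 1.42.0, limma-voom, no filter, each line alone, a replicate block, a term for the library sets, each set, a 1.5-fold threshold, limma on log2(FPKM + 1) or log2(FPKM + 0.1), and leaving out each library.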

Additional observations from a re-analysis of the deposited data

Results flagged for a closer look

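The response to interferon-β differed between the lines in 2 of the 7 tested members, by edgeR's test of the difference itself, where 1.99% of all genes were called higher and 1.52% lower. CASP1 rose by log2 0.94 more in MDA-MB-231 than in HCC38, from a lower untreated level. MLKL rose in HCC38 and its estimate in MDA-MB-231 was smaller, a difference of log2 -0.53, from a higher untreated level. Neither call was firm, since that for CASP1 was lost on leaving out any of 5 of the 12 libraries (adjusted p up to 0.0686) and that for MLKL on leaving out any of 9 (up to 0.0840). The part of the starting level in either difference was not tested.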

How the results depend on the processing

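Of 679 values of single members under alternatives, 595 kept their direction and side of the threshold, 44 lost the call, 17 gained it and 23 changed sign without being called in either fit. In HCC38 the count of 2 called members was 0 against a 1.5-fold change and 1 on log2(FPKM + 0.1) or on log2(FPKM + 1) with no filter, and 2 on leaving out any library, and it was 3, with CASP4 added, in DESeq2, with no filter, for the line alone, with the replicate block and with the set term. In MDA-MB-231 the count of 2 was 1 against a 1.5-fold change, within set A and on each of the 3 FPKM settings, 4 within set B (each set having 1 library in an arm), 3 with library totals or with the set term, and 1 to 2 on leaving out a library. For the difference of the responses the count of 2 was 1 with library totals, 0 against a 1.5-fold change and on each FPKM setting, 3 with no filter or with the set term, which both added GSDMD, and 0 to 2 on leaving out a library. Between the untreated lines the count of 7 was 4 against a 1.5-fold change. For the comparisons between lines, the count over all genes in that setting is given below only for treated cells. These 4 were thus not set against a share of all genes.

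The main fit did not pair samples by the replicate numbers of the titles. Same-numbered deviations from group means correlated at 0.04, -0.12 and 0.02 in HCC38, where other pairs ran from -0.15 to 0.14. In MDA-MB-231 they correlated at 0.27, -0.26 and 0.25. There numbers 1 and 3 join libraries of the same set and number 2 crosses the sets, so these values cannot show or exclude pairing. The highest value, 0.38, was between untreated replicate 3 and treated replicate 2, both of set B. With a replicate block the difference had 1 called member, CASP1, MLKL being at adjusted p = 0.0703, and CASP4 passed in HCC38 (0.0452).

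Over all genes, 659 were called in HCC38, against 1148 in DESeq2, 1131 with no filter, 1959 in a fit of that line alone, 1913 with the set term, 88 against a 1.5-fold change, 316 on log2(FPKM + 0.1) and 340 to 467 on leaving out a library. In MDA-MB-231 the 2272 became 1035 for the line alone, 4095 with the set term, 275 against a 1.5-fold change, 1176 and 3710 within sets A and B, 1058 to 1263 on FPKM and 1168 to 3263 on leaving out a library. The 637 of the difference became 1332 in DESeq2, 1254 with no filter, 2218 with the set term, 92 against a 1.5-fold change, 224 to 283 on FPKM and 294 to 1466 on leaving out a library. Between the treated lines 13581 became 8996 against a 1.5-fold change. Depth limits what can be said of CASP5, RIPK3, ZBP1, AIM2 and GSDMC.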
